A study of Macaca mulatta with 30 samples.

Results

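DUSP1, SGK1, ERRFI1, DDIT4, RGS2 and TXNIP are 6 genes that limit or redirect intracellular signals and are known to respond to glucocorticoids, and they were examined in fetal rhesus macaque lung and hippocampus after antenatal betamethasone. They were looked up by gene symbol in the rhesus Ensembl annotation, among 30246 gene identifiers in lung and 32386 in hippocampus. Of the 6 genes, 2 were matched in lung, SGK1 and TXNIP, and 3 in hippocampus, SGK1, TXNIP and ERRFI1. DUSP1, DDIT4 and RGS2 were matched in neither tissue and are not analysed here, nor is ERRFI1 in lung. Every matched member had enough reads to be tested.

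Pregnant animals received intramuscular saline or a corticosteroid, and RNA from whole fetal tissue was sequenced. Lung came from 15 wild type fetuses, 3 per group, labelled as gestational days 124 to 130. The groups were saline controls, the clinical drug Celestone at 0.25 mg/kg delivered after 4 h or after 5 days, and Beta-Ac (betamethasone acetate alone) at 0.125 mg/kg delivered after 6 h or after 5 days. The clinical drug holds the slowly released acetate together with betamethasone phosphate, which is quickly available. Hippocampus came from 15 fetuses at 130 to 136 days of gestation, 5 per group, all delivered 5 days after treatment, and 9 of these animals also gave lung. The hippocampus labels give those 9 animals ages of 131 to 136 days, outside the range on their lung labels, so the ages of the lung samples are uncertain. The hippocampus groups are called here by their library names, CTL (1 mL saline), BAC and CEL. For the BAC libraries the treatment field names both betamethasone salts at 0.25 mg/kg, and for the CEL libraries it names the acetate alone at 0.125 mg/kg. The lung labels of the same animals give the reverse, Beta-Ac for 3 BAC animals and Celestone for 3 CEL animals, so which drug a hippocampus group received is given only as far as its name. All animals in the 4 h group have numbers that begin with 15 and all 5-day lung animals have numbers that begin with 16, so animal cohort and treatment cannot be told apart there. The Beta-Ac animals at 6 h are 16-123, 16-131 and 17-254, so the same holds between the drugs at the early times. Animal 17-254 is the only lung animal whose number begins with 17.

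Glucocorticoids act through a nuclear receptor that binds DNA and raises transcription of a set of early genes. Several of these encode brakes or switches of kinase signaling. SGK1 is a serine/threonine kinase, activated by mTORC2 and PDPK1, that raises sodium uptake in epithelia by keeping the epithelial sodium channel at the cell surface and that inactivates FOXO transcription factors. ERRFI1 (also called MIG6) binds and inhibits the EGF receptor. TXNIP is an alpha-arrestin that binds thioredoxin and lowers glucose uptake, and its own transcription responds to glucose. DUSP1 dephosphorylates MAP kinases, DDIT4 restrains mTORC1, and RGS2 shortens G protein signals. In late-gestation lung, sodium uptake by the epithelium serves the clearance of fetal lung liquid.

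The lung libraries held 14.1 to 45 M reads assigned to genes, and the hippocampus libraries held 18.3 to 29.3 M. Levels below are normalised read counts, in reads per 1 M reads after TMM scaling (CPM), and they are not corrected for gene length. Tests therefore compare groups and not genes. Where a gene is ranked or called abundant, this refers to its reads and not to its number of transcripts. The members were covered by 30155 to 270545 reads per lung library for TXNIP and by 973 to 5846 for SGK1. In hippocampus the reads per library ranged from 2199 to 5518 for TXNIP, from 1203 to 2989 for SGK1 and from 380 to 647 for ERRFI1. Tissue identity was checked on marker genes. In lung the surfactant protein genes SFTPC and SFTPB averaged 5230 and 4310 CPM, and the neuronal factors NEUROD1 and NEUROD2 had 0 reads in all 15 libraries. In hippocampus the neuronal genes SNAP25 and SLC17A7 averaged 1024 and 784 CPM and SFTPB averaged 0.026 CPM, while ZBTB20, a factor of hippocampal pyramidal neurons, was at 1.25 CPM. A gene was called different if it changed by 1.5-fold or more with p below 0.05 and adjusted p below 0.1 in edgeR's quasi-likelihood test, adjusted by Storey's method in lung and by Benjamini-Hochberg in hippocampus. Nothing states how far the animals of a group were handled apart beyond their being different fetuses.

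TXNIP was higher in fetal lung 4 h after the clinical drug than in saline controls. The control libraries held 2313, 2658 and 2032 CPM (animals 15-92, 15-101 and 16-113), and the 4 h libraries held 6265, 4555 and 5140 CPM (15-81, 15-85 and 15-97). All 3 treated libraries lay above all 3 controls. The means were 5320 ± 869 CPM (SD, n = 3) and 2334 ± 313 CPM (SD, n = 3), a log2 fold change of 1.19 (SE 0.35, 95% confidence interval 0.44 to 1.94, adjusted p = 0.0421 in edgeR's quasi-likelihood test). TXNIP is abundant in this tissue. By number of reads it ranked between 5 and 10 among all genes in the 4 h libraries and between 14 and 25 in controls, and it took up to 0.601% of all reads at 4 h (15-81) and from 0.206 to 0.271% in controls. SGK1 held 89.6, 66.6 and 101 CPM in the controls and 135, 114 and 194 CPM at 4 h, again without overlap. Its log2 fold change of 0.78 (SE 0.41, 95% confidence interval -0.09 to 1.66, adjusted p = 0.228) did not pass the test. Thus 1 of the 2 members was called in this comparison, in which 7.4% of the 17644 genes tested were called, 3.46% higher and 3.94% lower. Since whole tissue was sequenced, more or fewer cells of a type cannot be told apart from more or less RNA per cell. The lung marker genes moved in the same comparison. The surfactant gene SFTPC rose from 3511 to 7706 CPM (log2 fold change 1.13) and ABCA3, the lipid transporter of type II cells, from 201 to 384 CPM (0.93), 2 of 8 markers tested, with the summed level of the markers between 8044 and 11885 CPM in controls and between 13180 and 19595 CPM at 4 h. Their part in the TXNIP result was not tested. The call for TXNIP was lost without animal 15-81, without control 15-92 and without control 16-113, at adjusted p of 0.101, 0.117 and 0.137, while the log2 fold change stayed between 1.04 and 1.29 with any 1 animal left out.

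**Figure D1:**
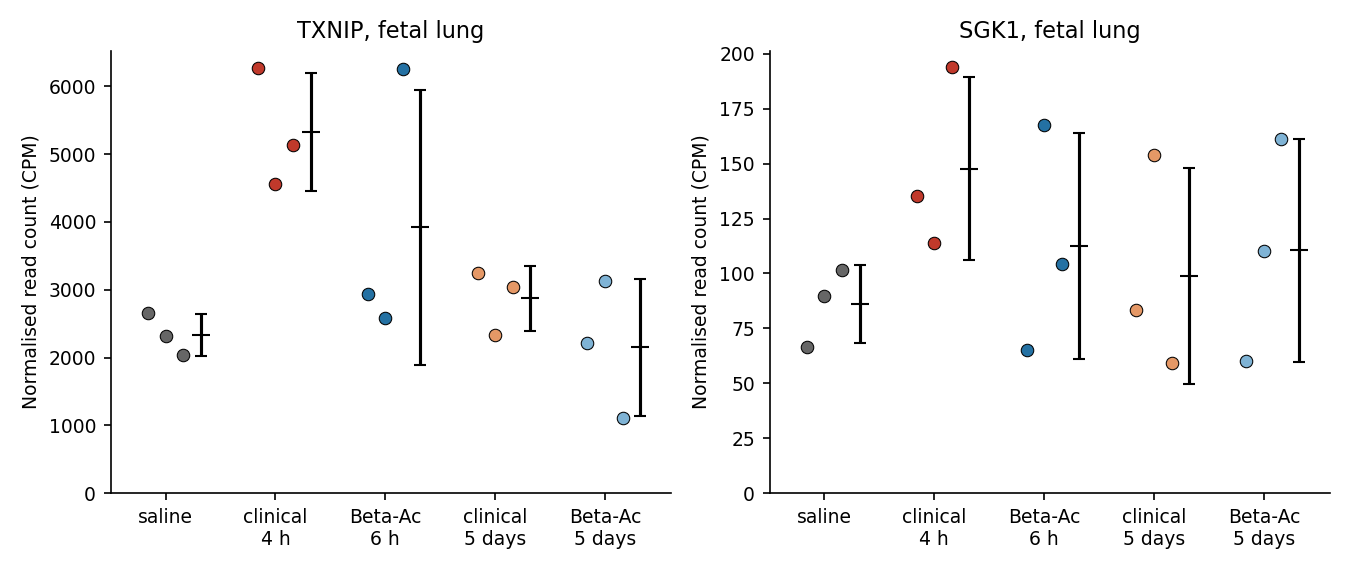
Normalised read count (CPM) of TXNIP (left) and SGK1 (right) in each of the 15 lung libraries, by group. Points are single fetuses, and the bar beside each group gives its mean ± SD (n = 3). TXNIP at 4 h lies at 4555 CPM or above in all 3 fetuses, and among the other 12 libraries only Beta-Ac animal 17-254, at 6256 CPM, reaches that level.

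At 6 h after Beta-Ac, TXNIP was uneven between animals. Animals 16-123 and 16-131 held 2929 and 2582 CPM, within or just above the control range of 2032 to 2658 CPM, and animal 17-254 held 6256 CPM, as much as the highest 4 h library. The group mean was 3922 ± 2029 CPM (SD, n = 3). Its log2 fold change over saline of 0.75 (SE 0.35, 95% confidence interval 0.01 to 1.49, adjusted p = 0.327 by edgeR) was not called, and without animal 17-254 it was 0.24. SGK1 held 65.3 CPM in 16-123, 168 CPM in 16-131 and 104 CPM in 17-254, which spans the controls on both sides (log2 fold change 0.39, SE 0.41, adjusted p = 0.565). The animal high in SGK1 was therefore not the animal high in TXNIP. Neither of the 2 members was called here by edgeR or by DESeq2, with 1 of them, TXNIP, at an unadjusted p under 0.05 (0.0478), against a background of 0.442% of genes called. Animal 17-254 also had the highest summed level of red blood cell genes among the lung libraries, 836 CPM over 5 of 12 genes matched, against 45.9 to 410 CPM in the other 14, with HBA the most abundant, and the highest summed level of immediate early genes in its group, 1068 CPM against 697 and 712 CPM. Their part in its TXNIP level was not tested.

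The drugs were also compared with each other at the early times, which differ between them (4 h and 6 h) as do the dose and the animal cohort. TXNIP was 0.44 higher on the log2 scale after the clinical drug (SE 0.34, 95% confidence interval -0.30 to 1.18, adjusted p = 0.311), and SGK1 was 0.39 higher (SE 0.41, 95% confidence interval -0.48 to 1.26, adjusted p = 0.386). The groups overlapped for both genes. By edgeR 0 of 2 members were called and 0 had an unadjusted p under 0.05, DESeq2 called 0, and 6.74% of all genes were called. This rested on animal 17-254, since without it TXNIP differed by 0.95 with an adjusted p of 0.0915 and was called. Red blood cell genes moved between the same groups, with 3 of 5 tested lower after the clinical drug, and their part was not tested beyond this.

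At 5 days TXNIP and SGK1 showed no called difference from saline. After the clinical drug TXNIP held 3246, 2331 and 3039 CPM (16-115, 16-120 and 16-126), with a log2 fold change of 0.30 (SE 0.34, 95% confidence interval -0.44 to 1.04, adjusted p = 0.931). After Beta-Ac it held 2215, 3132 and 1112 CPM (16-128, 16-130 and 16-136), and its log2 fold change was -0.12 (SE 0.34, 95% confidence interval -0.85 to 0.62, adjusted p = 0.930). Animal 16-136 had the lowest TXNIP level of all 15 lung libraries, and without it the value was 0.20. SGK1 held 83.4, 154 and 59.1 CPM after the clinical drug and 60.0, 110 and 161 CPM after Beta-Ac in the same order of animals, so that each 5-day group had libraries above and below the controls. Its log2 fold changes were 0.20 (95% confidence interval -0.67 to 1.07) and 0.36 (95% confidence interval -0.51 to 1.24). These intervals leave room for a change of 1.5-fold in either gene. Between the drugs at 5 days the log2 difference, clinical drug over Beta-Ac, was 0.42 for TXNIP (95% confidence interval -0.32 to 1.15, adjusted p = 0.999) and -0.16 for SGK1 (95% confidence interval -1.03 to 0.71, adjusted p = 0.999). In all 3 of these comparisons edgeR called 0 of 2 members, 0 had an unadjusted p under 0.05, and DESeq2 called 0. The background was low as well. EdgeR called 0% of genes for the clinical drug against saline (775 genes at an unadjusted p under 0.05, 16 called by DESeq2), 0.00567% for Beta-Ac against saline (1 gene) and 0% between the drugs (556 genes at an unadjusted p under 0.05, 8 called by DESeq2).

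Within the clinical drug, TXNIP was lower at 5 days than at 4 h. The 3 libraries at 4 h lay above the 3 at 5 days, and the log2 difference, 4 h over 5 days, was 0.89 (SE 0.35, 95% confidence interval 0.15 to 1.63, adjusted p = 0.0831), or 1.85-fold. SGK1 was 0.58 higher at 4 h (SE 0.41, 95% confidence interval -0.29 to 1.45, adjusted p = 0.262) with overlapping groups. Of the 2 members 1 was called, in a comparison that called 10.4% of all genes. The TXNIP call was lost with each of the 6 animals left out in turn, at adjusted p from 0.126 to 0.226 and log2 differences from 0.74 to 0.99, and with Benjamini-Hochberg adjustment (0.136). Immediate early genes, which respond within minutes to tissue handling and stress, moved between the same groups. Of 14 tested, 8 were lower and 2 higher at 4 h than at 5 days, their summed level was 570 to 779 CPM at 4 h and 727 to 1265 CPM at 5 days with JUNB the most abundant, and their part in the TXNIP difference was not tested. Within Beta-Ac, TXNIP was 0.87 higher at 6 h than at 5 days (SE 0.35, 95% confidence interval 0.12 to 1.61, unadjusted p = 0.0254, adjusted p = 0.479 by edgeR) and 0.36 higher without animal 17-254, and SGK1 differed by 0.03 (SE 0.40, 95% confidence interval -0.84 to 0.89). EdgeR called 0 of 2 members there, 1 had an unadjusted p under 0.05, DESeq2 called 0, and 0.261% of genes were called. The 4 lung comparisons with saline share their controls, and the early and late comparisons share their treated animals.

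**Figure D2:**
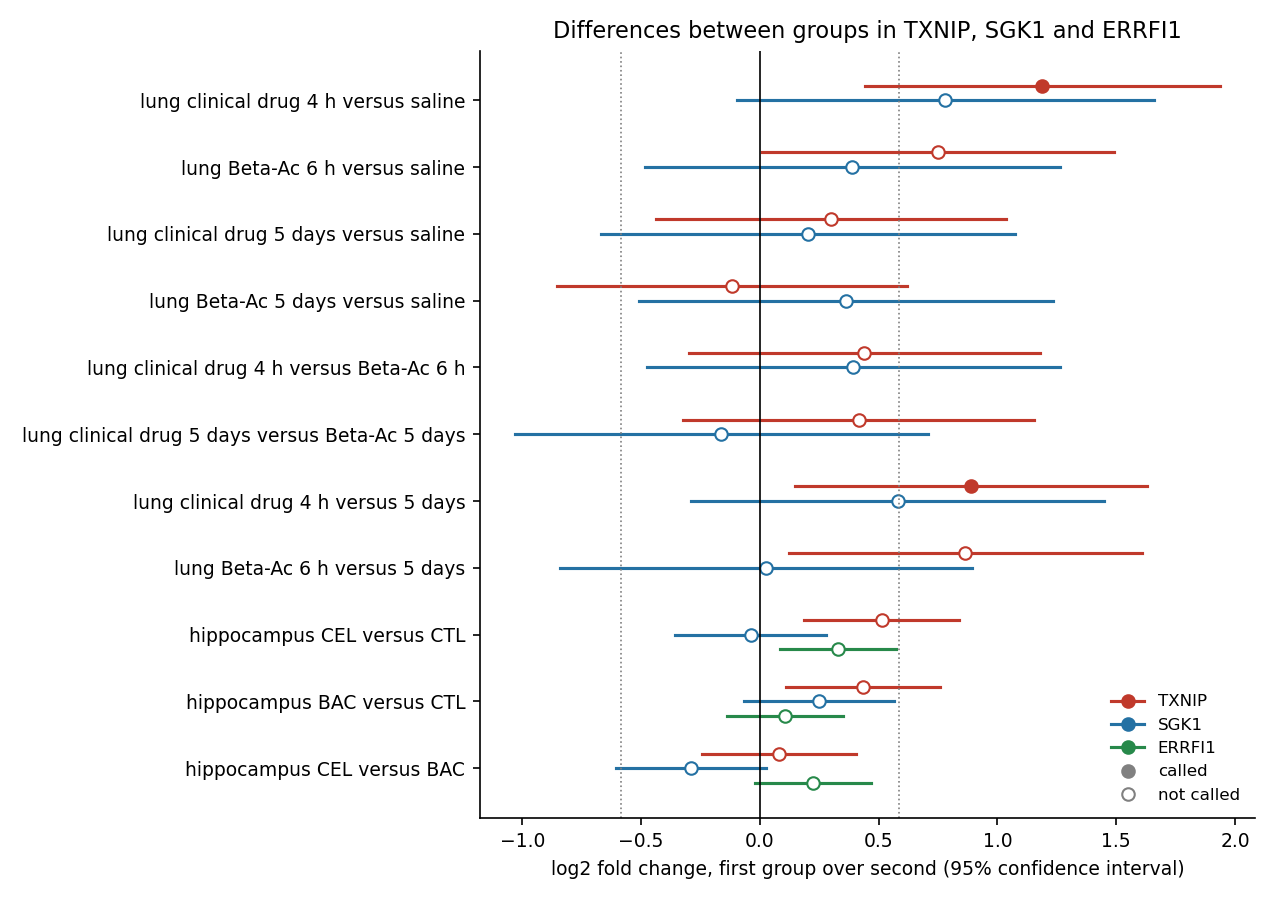
Log2 fold change of TXNIP, SGK1 and ERRFI1 in the 11 comparisons, first-named group over the second, with 95% confidence intervals. Filled points were called and dotted lines mark a 1.5-fold change. Both filled points are TXNIP 4 h after the clinical drug, at 1.19 over saline and 0.89 over 5 days.

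In order of mean level in lung, TXNIP ran from the clinical drug at 4 h (5320 CPM) through Beta-Ac at 6 h (3922), the clinical drug at 5 days (2872) and saline (2334) to Beta-Ac at 5 days (2153). SGK1 ran from the clinical drug at 4 h (148 ± 41.6 CPM, SD, n = 3) through Beta-Ac at 6 h (112 ± 51.6), Beta-Ac at 5 days (111 ± 50.7) and the clinical drug at 5 days (98.8 ± 49.2) to saline (85.9 ± 17.7). For neither gene was any tested pair of neighbours in this order called different.

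FKBP5, a chaperone cofactor that the glucocorticoid receptor induces and that dampens it in turn, served as a reference for the drug response of each lung. It held 5.83, 5.27 and 5.72 CPM in controls and 219, 120 and 179 CPM at 4 h after the clinical drug. Among the Beta-Ac lungs at 6 h it held 18.9 CPM in 16-123, 31.2 CPM in 16-131 and 106 CPM in 17-254. All 6 libraries at 5 days lay between 5.78 and 6.68 CPM. The 4 libraries with the most FKBP5 were also the 4 with the most TXNIP, the 3 at 4 h and 17-254. ARRDC2, an alpha-arrestin of the same family as TXNIP, was also highest in these 4, at 173, 186 and 207 CPM at 4 h and 114 CPM in 17-254, with 46.6 and 50.0 CPM in the other Beta-Ac animals. For SGK1 the 4 highest libraries were 15-97 at 4 h, 16-131 at 6 h and 16-136 and 16-120 at 5 days, so high SGK1 was found with FKBP5 at 179, 31.2, 6.19 and 5.80 CPM. Over the 15 libraries Pearson's r of log2 CPM with FKBP5 was 0.81 for TXNIP and 0.46 for SGK1. The libraries fall into separate clusters by FKBP5, so these values cannot be told apart from the differences between groups.

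**Figure D3:**
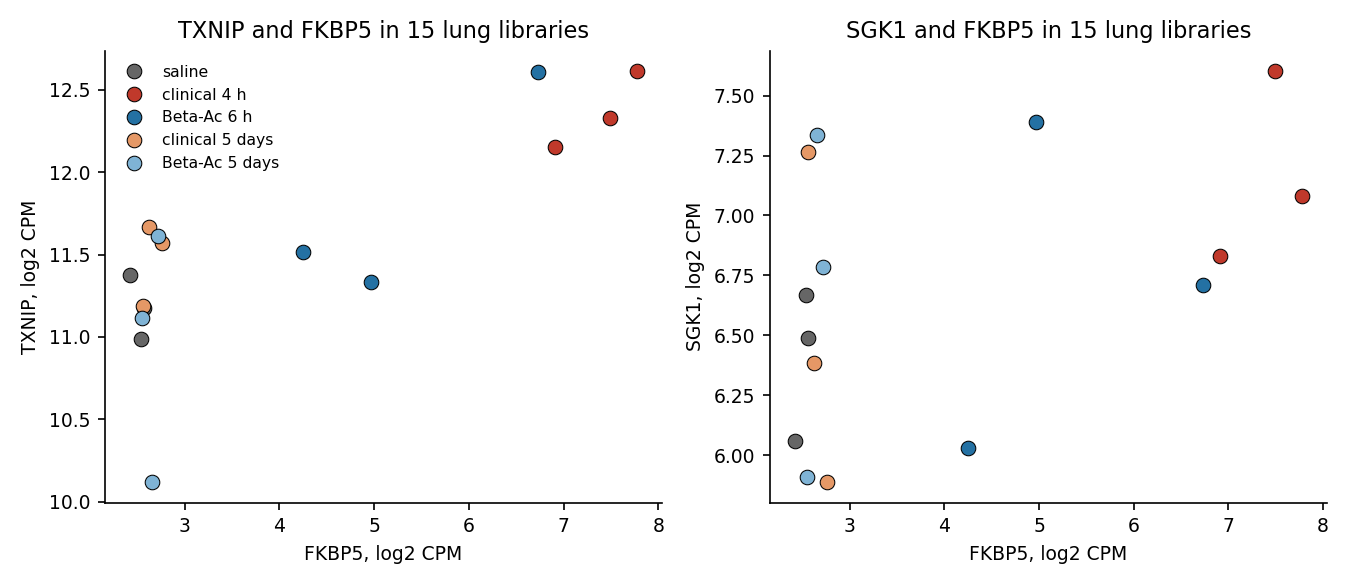
Log2 CPM of TXNIP (left) and SGK1 (right) against log2 CPM of FKBP5 in the 15 lung libraries, 1 point per fetus, coloured by group. The 3 fetuses at 4 h and Beta-Ac animal 17-254 lie at the upper right for TXNIP, while SGK1 runs from 59.1 to 161 CPM among the control and 5-day libraries, which have little FKBP5, and its highest value, 194 CPM, is at 4 h.

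The genes around the members were taken as lists by pathway, chosen with earlier results of these data known. The shares called therefore describe the lists and are no independent test of them. To describe the response, 10 other genes known to be induced by glucocorticoids were tested, and 9 were called higher 4 h after the clinical drug. These were 90% of the list, against 7.4% of all genes, and the median log2 fold change was 2.33, against 0.02 for all genes. FKBP5 (4.94), the transcription repressor ZBTB16 (4.43), the transcription factor TFCP2L1 (3.56) and PDK4, which shuts pyruvate out of mitochondrial oxidation (3.39), changed the most. After Beta-Ac at 6 h 5 of the 10 were called higher (median 1.64), 50% of the list against 0.442% of all genes. Without animal 17-254 this fell to 2, FKBP5 and ZBTB16, while the log2 fold change went from 1.79 to 1.65 for PER1, from 1.83 to 1.37 for PDK4 and from 1.33 to 1.07 for KLF15. DESeq2 called 8 of the 10 with all animals.

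Among the relatives, activators and targets of SGK1, 7 of 19 genes tested were called higher 4 h after the clinical drug and 0 lower. These were 36.8% of the list, against 7.4% of all genes, and the median log2 fold change of the list was 0.36. FOXO3, a transcription factor that SGK1 inactivates, rose from 42.8 ± 5.19 to 156 ± 81.3 CPM (SD, n = 3, log2 fold change 1.87, adjusted p = 0.00282), and FOXO1 rose by 1.23. All 3 subunits of the epithelial sodium channel rose. SCNN1G went from 42.8 to 107 CPM (1.32, adjusted p = 0.0187), SCNN1A from 154 to 348 CPM (1.17, adjusted p = 0.00354) and SCNN1B from 27.5 to 57.0 CPM (1.04, adjusted p = 0.0121). NDRG2, a phosphorylation target of SGK1, rose by 0.59 and was not called by DESeq2. The sodium channel subunits were called higher in the comparison where SGK1 itself, at 0.78, was not called. Whether they changed more than SGK1 was not tested. SGK1 was called there when only these groups were fitted (adjusted p = 0.0913 by edgeR). After Beta-Ac at 6 h edgeR called 0 of the 19 (median 0.22, 10 at an unadjusted p under 0.05, 2 called by DESeq2), with log2 fold changes of 1.05 for SCNN1G, 0.65 for SCNN1B and 0.55 for SCNN1A. Compared directly, 4 of the 19 (21.1%, against 6.74% of all genes) were higher after the clinical drug than after Beta-Ac and 0 lower. They included SCNN1A (0.62), the mTORC2 subunit RICTOR (0.71) and the kinase SGK2 (1.48, at 1.58 against 0.548 CPM). Without animal 17-254 the calls for SCNN1A and SGK2 were lost and that for RICTOR was kept. FOXO3 (1.02, adjusted p = 0.0614 by edgeR) and FOXO1 (0.999, adjusted p = 0.0186) were then called higher after the clinical drug. The count thus stayed at 4 of the 19. Within the clinical drug 7 of the 19 were called higher at 4 h than at 5 days, with SGK3 called lower (-0.91). Together they were 42.1% of the list, against 10.4% of all genes.

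Of the 12 genes tested around TXNIP, the other alpha-arrestins, the thioredoxin system and glucose transporters, 1 was higher and 1 lower 4 h after the clinical drug (median 0.12). These 2 genes are 16.7% of the list, against 7.4% of all genes. ARRDC2 rose from 31.4 ± 6.00 to 188 ± 17.3 CPM (SD, n = 3, log2 fold change 2.59, SE 0.28, adjusted p = 7.92e-05). The inflammasome sensor NLRP3, to which TXNIP can bind, fell from 1.26 to 0.583 CPM (-1.09, adjusted p = 0.0793 by edgeR). DESeq2 called ARRDC2 and not NLRP3. ARRDC2 was also called higher after Beta-Ac (1.16, adjusted p = 0.0931), though not without animal 17-254 (0.63, adjusted p = 0.273), and it was higher after the clinical drug than after Beta-Ac both with that animal (1.43, adjusted p = 0.00714) and without it (1.96). By 5 days ARRDC2 had means of 31.0 and 31.6 CPM. TXNIP and ARRDC2 were thus both called higher at 4 h than in saline and than at 5 days. The call of TXNIP against 5 days was lost with any animal left out, and that against saline with some. No other gene of this list was called higher at 4 h over saline.

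In the insulin and mTORC1 pathway, which DDIT4 restrains, 5 of 21 genes rose 4 h after the clinical drug and 1 fell (28.6% of the list, against 7.4% of all genes, median 0.09). PIK3R1, the regulatory subunit of PI3 kinase, rose from 100 ± 13.8 to 250 ± 84.4 CPM (SD, n = 3, log2 fold change 1.32, adjusted p = 0.000632). The insulin receptor substrate IRS2 (1.53), the insulin receptor INSR (0.72) and the mTORC1 inhibitors DEPTOR (1.2) and SESN1 (0.82) rose as well, and TBC1D7, a subunit of the TSC complex that inhibits mTORC1, fell (-0.60). PIK3R1 was called after Beta-Ac too (0.93, adjusted p = 0.0588), but not without animal 17-254 (0.84, adjusted p = 0.328). SESN1 was at 182 ± 10.8 CPM at 4 h against 103 ± 8.16 CPM at 6 h after Beta-Ac (0.83, adjusted p = 0.00138) and 103 ± 13.2 CPM in controls.

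**Figure D4:**
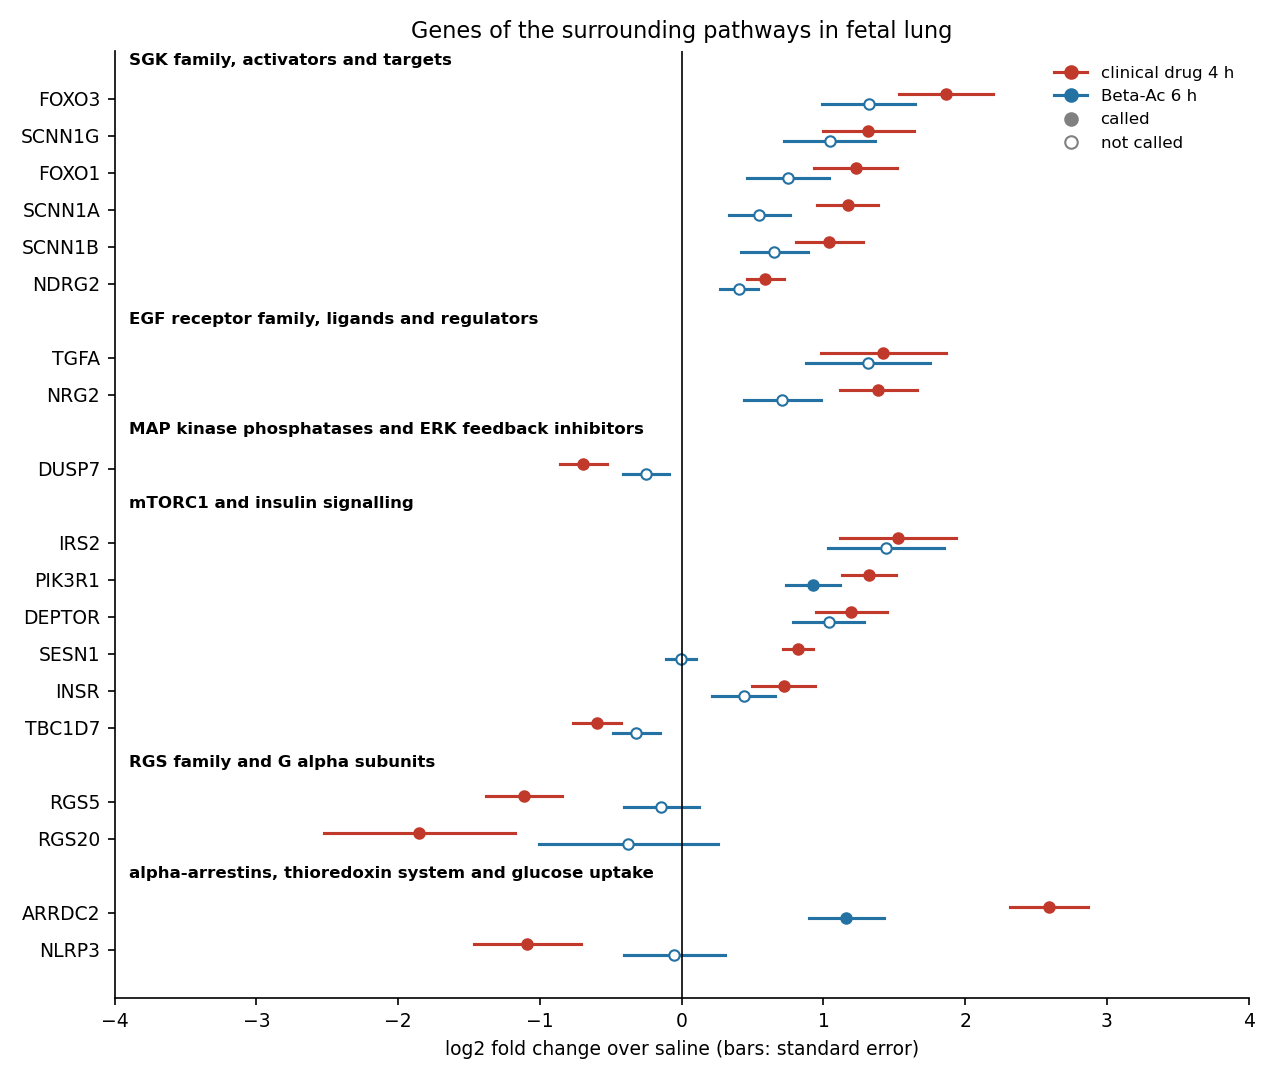
Log2 fold change over saline, with its standard error, for the reported genes of 6 pathway lists that were called in either early comparison, 4 h after the clinical drug (red) and 6 h after Beta-Ac (blue). Filled points were called. PIK3R1 and ARRDC2 are filled in both comparisons, and the sodium channel subunits are filled at 4 h only. Both comparisons share the 3 saline controls.

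In the remaining lists the share called 4 h after the clinical drug, against 7.4% of all genes, was 23.1% in the hypoxia list (3 genes), 14.3% in the immediate early list (2 genes), 11.1% in the EGF receptor and RGS lists (2 genes each), 8.33% in the MAP kinase phosphatases (1 gene) and 0% in the MAP kinases, and the genes are given as single genes. Of 18 genes of the EGF receptor family, which ERRFI1 inhibits, 2 ligands rose 4 h after the clinical drug, NRG2 from 3.22 to 8.37 CPM (1.39) and TGFA from 0.690 to 1.85 CPM (1.42). Of 12 MAP kinase phosphatases and ERK feedback inhibitors, the families of DUSP1, only the ERK phosphatase DUSP7 was called, from 40.0 to 24.7 CPM (-0.69, adjusted p = 0.0156). Among 11 MAP kinases edgeR called 0 (1 at an unadjusted p under 0.05, 0 called by DESeq2), and their median was 0.03. Of 18 RGS proteins and G alpha subunits, relatives and targets of RGS2, the pericyte gene RGS5 fell from 566 ± 76.5 to 261 ± 0.749 CPM (-1.11, adjusted p = 0.0169) and RGS20 fell from 3.98 to 1.1 CPM (-1.85). RGS5 was also lower after the clinical drug than after Beta-Ac (-0.97, adjusted p = 0.0363). Hypoxia-induced genes, which share glucose metabolism with TXNIP, had 2 of 13 higher and 1 lower at 4 h, namely BNIP3 (1.04), HK2 (0.66) and EGLN3 (-0.88). HK2, which phosphorylates glucose on entry, was also called after Beta-Ac at 6 h (1.24, adjusted p = 0.0523), though not without animal 17-254 (1.29, adjusted p = 0.201), and at 5 days its log2 fold changes of 1.12 after the clinical drug and 1.06 after Beta-Ac were called by DESeq2 and not by edgeR (adjusted p = 0.561 and 0.641). Immediate early genes had 1 of 14 higher 4 h after the clinical drug, FOSL2 (1.11), and 1 lower, FOSL1 (-2.27), which DESeq2 did not call. At 5 days against saline edgeR called 0 of the 148 genes of all lists after the clinical drug (10 at an unadjusted p under 0.05, 1 called by DESeq2) and 0 after Beta-Ac (7 and 1).

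In hippocampus at 5 days no member passed the test. TXNIP and ERRFI1 had an adjusted p below 0.1 for CEL against CTL but differed by less than 1.5-fold. TXNIP held 110, 114, 148, 118 and 172 CPM in CTL (15-92, 15-101, 16-113, CTL209 and CTL212), 196, 191, 170, 152 and 184 CPM in BAC (16-128, 16-130, 16-136, BAC235 and BAC237) and 163, 181, 223, 237.3 and 139 CPM in CEL (16-115, 16-120, 16-126, CEL238 and CEL245). CTL212 reached into both treated groups and control 16-113 lay above CEL245, and 3 of 5 libraries in each treated group lay above all controls. The means were 132 ± 26.6, 179 ± 17.8 and 189 ± 41.0 CPM (SD, n = 5). The log2 fold change over CTL was 0.51 in CEL (SE 0.15, 95% confidence interval 0.19 to 0.84, adjusted p = 0.0408 by edgeR), or 1.43-fold, and 0.43 in BAC (SE 0.15, 95% confidence interval 0.11 to 0.76, adjusted p = 0.286). CEL and BAC differed by 0.08 (95% confidence interval -0.25 to 0.40, adjusted p = 0.852). In the order of means CEL, BAC and CTL, no neighbours were called different.

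ERRFI1 held 19.0, 20.6, 20.0, 24.4 and 15.6 CPM in CTL, 21.0, 21.5, 23.1, 19.6 and 21.9 CPM in BAC and 26.0, 24.1, 21.1, 27.0 and 26.9 CPM in CEL, in the same order of animals. In CEL 3 of 5 libraries lay above all controls and 4 of 5 above all BAC libraries. The means were 19.9 ± 3.16, 21.4 ± 1.30 and 25.0 ± 2.50 CPM (SD, n = 5). The log2 fold change was 0.33 for CEL over CTL (SE 0.12, 95% confidence interval 0.08 to 0.57, adjusted p = 0.0699 by edgeR), or 1.26-fold. It was 0.10 for BAC over CTL (adjusted p = 0.753) and 0.22 for CEL over BAC (adjusted p = 0.402). SGK1 held 73.5, 60.5, 68.5, 74.2 and 73.1 CPM in CTL, 67.8, 123, 84.9, 63.8 and 76.3 CPM in BAC and 64.3, 61.9, 79.0, 63.7 and 71.4 CPM in CEL. Only BAC animal 16-130 stood clearly above the rest. The log2 fold change was -0.04 for CEL over CTL (95% confidence interval -0.36 to 0.28, adjusted p = 0.884), 0.25 for BAC over CTL (95% confidence interval -0.07 to 0.57, adjusted p = 0.513) and -0.29 for CEL over BAC (95% confidence interval -0.61 to 0.03, adjusted p = 0.406), all by edgeR. Without 16-130 the BAC value over CTL was 0.07. For CEL over CTL the interval of SGK1 stays within 1.5-fold on either side.

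EdgeR called 0 of 3 members for CEL against CTL, where 7.86% of 17390 genes tested were called, with 2 members at an unadjusted p under 0.05 and 0 called by DESeq2. For BAC against CTL it called 0 of 3 members (1 at an unadjusted p under 0.05, 0 by DESeq2) and 0% of genes (2133 at an unadjusted p under 0.05, 149 called by DESeq2). For CEL against BAC it called 0 of 3 members (0 at an unadjusted p under 0.05, 0 by DESeq2) and 0% of genes (2346 at an unadjusted p under 0.05, 186 called by DESeq2).

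Sequencing run and 1 control library moved with these values. The controls were spread over all 4 runs, and the BAC and CEL libraries over 2 of them, run1630 and run0164. TXNIP in the controls was 110 and 114 CPM in run0024 and 118 CPM in run0162, the runs without treated libraries, against 148 CPM in run1630 and 172 CPM in run0164. Within run1630 the means were 148 CPM in CTL (n = 1), 186 in BAC and 189 in CEL (n = 3 each), and within run0164 they were 172, 168 and 188 CPM (n = 1, 2 and 2). With run as a term in the fit the log2 fold change of TXNIP was 0.24 for CEL (adjusted p = 0.435) and 0.16 for BAC (adjusted p = 0.738). ERRFI1 went the other way, to 0.49 for CEL (adjusted p = 0.0730 by edgeR). Its means in CTL and CEL were 20.0 and 23.7 CPM within run1630 (n = 1 and 3). Within run0164 they were 15.6 and 27.0 CPM (n = 1 and 2). The only control in run0164 is CTL212, so the run and that library cannot be told apart among the controls. Control CTL212 held transcripts of choroid plexus, the epithelium that lines the ventricles beside the hippocampus. The 4 markers matched of 7 summed to 979 CPM there and to between 3.93 and 20.8 CPM in the other 14 libraries, with CLIC6 the most abundant and no marker at 0. This library had the highest TXNIP and the lowest ERRFI1 of the controls. Without it TXNIP was 0.63 higher in CEL (adjusted p = 0.0194) and was called, and ERRFI1 was 0.25 higher (adjusted p = 0.126). The part of choroid plexus tissue in the levels of both genes was not tested beyond this. Of the hippocampal neuron markers, NEUROD1 was called higher in CEL, from 56.4 ± 17.6 to 128 ± 14.2 CPM (SD, n = 5, log2 fold change 1.18, adjusted p = 0.0242 by edgeR), 1 of 8 markers tested (12.5%, against 7.86% of all genes). The median of the 8 was 0.32, all had values above 0, and none had a library at 0. Their summed level, with SNAP25 the most abundant, was 1800 to 2798 CPM in CTL, 1933 to 2505 CPM in BAC and 2293 to 2784 CPM in CEL, and their part in the ERRFI1 and TXNIP values was not tested.

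**Figure D5:**
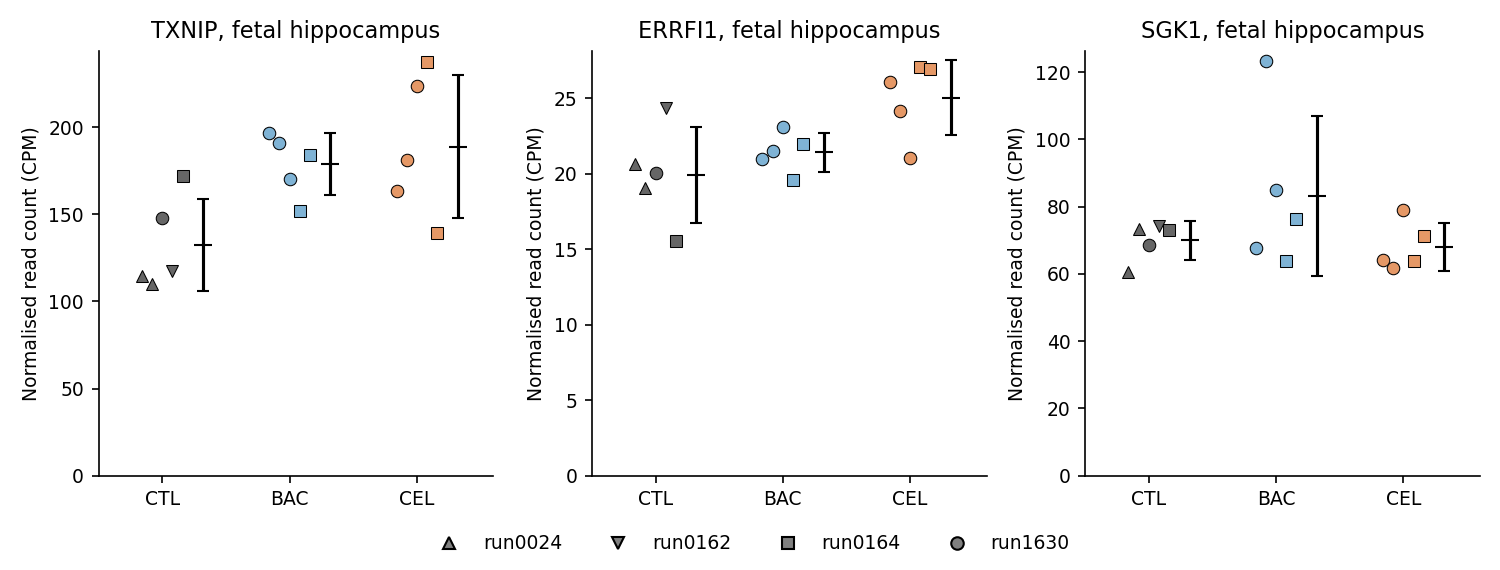
Normalised read count (CPM) of TXNIP, ERRFI1 and SGK1 in each of the 15 hippocampus libraries, by library name. Symbols give the sequencing run and the bar beside each group its mean ± SD (n = 5). The 3 lowest TXNIP controls, from 110 to 118 CPM, come from run0024 and run0162, and SGK1 in BAC animal 16-130 stands at 123 CPM.

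The pathway lists in hippocampus gave single genes in both directions for CEL against CTL. Of all genes 7.86% were called. The shares of the RGS (10%), hypoxia (7.69%), thioredoxin and arrestin (7.14%), immediate early (6.67%) and insulin and mTORC1 (5%) lists lay near this background. Those of the MAP kinases (18.2%), the EGF receptor family (15.8%) and the MAP kinase phosphatases (15.4%) were higher and rested on 2, 3 and 2 genes. The genes below are therefore given as single genes and not as results of their lists. In the EGF receptor family 1 of 19 rose and 2 fell, with the ligand TGFA from 58.2 ± 9.46 to 97.7 ± 11.1 CPM (SD, n = 5, log2 fold change 0.75, adjusted p = 0.0138), the neuregulin receptor ERBB4 from 11.2 to 6.66 CPM (-0.74) and the ligand NRG4 from 1.96 to 0.848 CPM (-1.21). TGFA was thus called higher in both tissues, in lung 4 h after the clinical drug and in hippocampus in CEL at 5 days. Among 11 MAP kinases MAPK6 rose (0.59). Of the 13 phosphatases and feedback inhibitors SPRED1 rose (0.60) and PTPRR fell (-0.95), of 20 RGS proteins and G alpha subunits RGS18 rose (0.89) and RGS9 fell (-0.68), and of 20 insulin and mTORC1 genes the kinase AKT2 fell, from 38.7 ± 2.88 to 23.2 ± 2.22 CPM (-0.74). In the thioredoxin and arrestin list 1 of 14 fell, the mitochondrial thioredoxin reductase TXNRD2, from 22.5 ± 0.614 to 13.8 ± 2.01 CPM (-0.71, adjusted p = 0.0174). EdgeR called 0 of 17 relatives, activators and targets of SGK1 (median -0.11, 3 at an unadjusted p under 0.05, 0 called by DESeq2) and 0 of 9 other glucocorticoid-induced genes (median 0.01, 2 and 0). Without control CTL212 it called 2 of the former, among them NEDD4 (0.61). Immediate early genes had 1 of 15 higher, EGR2 (0.86), and hypoxia-induced genes 1 of 13 lower, PDK1 (-0.82). Of the 13 genes called over all lists, 9 were also called without control CTL212 and 4, TGFA, ERBB4, AKT2 and TXNRD2, also with sequencing run as a term. With run as a term 9 genes of the lists were called in all, 5 of them among the 19 of the EGF receptor family, where 3 were called without it, and 1 among the other glucocorticoid-induced genes, CEBPD (0.77, adjusted p = 0.0859), where 0 were called without it. EdgeR called 0 of the 151 genes of all lists for BAC against CTL (18 at an unadjusted p under 0.05, 0 called by DESeq2) and 0 for CEL against BAC (20 and 1).

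The genes whose levels ran most like those of a member over the 15 libraries of a tissue were found by Pearson's r of log2 CPM, among 11213 genes in lung and 12041 in hippocampus with a symbol and a mean of at least 1 CPM. They share libraries, depth and groups, so the values describe these libraries only. In lung TXNIP was most like TRAPPC11, a subunit of a vesicle tethering complex (r = 0.94), GCH1, the first enzyme of tetrahydrobiopterin synthesis (0.94), and the histone demethylase KDM3A (0.92). SGK1 in lung had lower values, 0.77 for POLR1F, 0.75 for DCBLD1 and 0.73 for HOMEZ. SGK1 and TXNIP did not run together in lung (r = 0.09). In hippocampus TXNIP was most like ARFIP1 (0.88), LSM14A (0.86) and SUCLG2 (0.86), SGK1 was most like SLC13A3 (0.85), the adaptor SHC1 (0.84) and the growth hormone receptor GHR (0.83), and ERRFI1 was most like the phosphatase subunit PPP2R2C (0.89), the glutamate receptor subunit GRIA1 (0.89) and NAP1L2 (0.86).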

How the data were processed

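The values are raw counts, whole reads per Ensembl gene, 1 table per tissue, as the authors deposited them before filtering and normalization. Per the submitters' processing notes lung reads were aligned with Bowtie 1.2.1.1 and counted with featureCounts 1.5.1, and hippocampus reads with Bowtie2 and featureCounts. The study's methods name MMUL1.0 and 75 bp paired-end reads, and the annotation release is not given in the sources used here. Hippocampus libraries were poly(A) selected. Symbols came from a table of Ensembl identifiers, which named 52.1% of lung and 54.4% of hippocampus identifiers. Testing used edgeR 4.0.16 in R 4.3.3 and kept genes that reached 7 reads in 3 or more libraries of lung, or 5 or more of hippocampus (TMM, quasi-likelihood, 1 fit per tissue). The prior count was 0.125 for fold changes and 2 for levels in log2 CPM. The tables were normalised separately, so no test was made across tissues. Depth is given per library, and the spread between animals sets the precision. The 6 members and the gene lists were chosen with earlier results of these data known. At most 4 called genes per list, those with the largest change, and the 3 genes most like each member were named, and further called genes were named after their values were seen. Alternatives were other normalizations, filters, thresholds, adjustments and tests (DESeq2 1.42.0), fewer libraries, sequencing run, and each animal left out. The fit was tested on simulated counts. Some called genes of the lists are counted but not reported here by name.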

Additional observations from a re-analysis of the deposited data

Results flagged for a closer look

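In 18 sets of hippocampus values (3 members and 3 gene lists in 3 groups of 5), 2 had a single library far from the other 4, a gap that chance gives in about 1 of 20 such sets. Both were summed levels of choroid plexus genes, 979 CPM in control CTL212 and 20.8 CPM in library BAC235. None of the 3 members met the criterion in any hippocampus group, and lung groups of 3 were too small for it. In lung TXNIP after the clinical drug differed between 4 h and 5 days. The log2 difference, 4 h over 5 days, was 0.89 (adjusted p = 0.0831 by edgeR, higher at 4 h in 3 of 3 libraries). The call was lost with any animal left out and with Benjamini-Hochberg adjustment. Animal cohort and time cannot be told apart there.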

How the results depend on the processing

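With 3 lung animals per group, both calls of TXNIP in lung were lost with some single animals left out. The cause of the changes below was not tested. For the clinical drug at 4 h against saline, 2 members were called when only these groups were fitted (SGK1 at 0.77, adjusted p = 0.0913) and 0 to 1 with an animal left out. For 4 h against 5 days the 1 call became 0 without a filter, 0 with Benjamini-Hochberg adjustment, and 0 with any animal left out. For 4 h against Beta-Ac at 6 h, 0 to 1 were called with an animal left out. For CEL against CTL the 0 calls became 2 without a fold-change threshold (TXNIP and ERRFI1), 1 with only animals that also gave lung (TXNIP, 0.61), and 0 to 1 with an animal left out (1 without control CTL212 or CEL245). Log2 fold changes that were not called changed sign with an animal left out, with ranges for SGK1 of -0.038 to 0.66 for Beta-Ac at 6 h, -0.011 to 0.66 for Beta-Ac at 5 days and -0.27 to 0.47 for Celestone at 5 days, each against saline. They were -0.64 to 0.21 between the drugs at 5 days and -0.40 to 0.39 for Beta-Ac at 6 h against 5 days, with 0.10 and -0.28 among the values of reversed sign. For TXNIP the ranges were -0.49 to 0.20 for Beta-Ac at 5 days against saline and -0.016 to 0.17 for CEL against BAC. SGK1 in CEL against CTL was 0.021 with only animals that also gave lung.

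Counts of all genes called changed by more than 1.5 times in these cases. Without a fold-change threshold, 1306 became 2104 (4 h against saline), 1189 became 2389 (4 h against 6 h), 1833 became 3306 (4 h against 5 days) and 1366 became 3816 (CEL against CTL). With only the groups compared, 78 became 19 (6 h against saline), 1189 became 314, 46 became 9 (6 h against 5 days) and 1 became 7 (Beta-Ac at 5 days). With DESeq2, 78 became 247, 46 became 185, 1 became 40, and the 4 counts of 0 became 16, 8, 149 and 186. Without a filter 1189 became 724, 0 became 1 (clinical drug at 5 days) and 1 became 2. With Benjamini-Hochberg adjustment 46 became 29, and with Storey's 0 became 1 (BAC against CTL). For CEL against BAC 0 became 13 with run as a term and 2 with only the runs that hold all groups, where CEL against CTL gave 572. That last setting and the pathway lists without 17-254, without CTL212 and with run were chosen after seeing the data. With an animal left out the counts ranged from 9 (without control 15-92) to 211 (without 16-131) for 6 h against saline, 667 (15-85) to 1971 (15-81) for 4 h against 6 h, 5 (16-136) to 98 (16-131) for 6 h against 5 days, 0 to 184 (16-128) for BAC against CTL and 0 to 9 (control 16-113) for the clinical drug at 5 days against saline. No paired analysis was possible because the labels give the groups compared no shared replicate numbers.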
